A study of Mus musculus with 12 samples.

Results

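Hepatic stellate cells are the pericytes of the liver sinusoid. At rest they store retinoids and secrete matrix proteins and growth factors, and on injury they can turn into contractile, collagen-producing myofibroblasts. The 10 genes Des, Acta2, Tagln, Pdgfrb, Dcn, Lum, Reln, Hgf, Timp1 and Lox are used as markers of these cells, of their activated state or of neighbouring smooth muscle and fibroblasts. They were taken by gene symbol, and all 10 were among the 16821 genes listed (in that order NCBI gene 13346, 11475, 21345, 18596, 13179, 17022, 19699, 15234, 21857 and 16948). RNA was sequenced from the livers of 12 male C57BL/6J mice, each with its own library. The mice were 8 weeks old when purchased and had 1 week of adaptation before they were divided. The sedentary control (Con, n = 6) group had no access to the treadmill, and the chronic exercise (Exe, n = 6) group ran at moderate intensity for 6 weeks, on 5 days per week and for 60 min per day. Sampling took place no later than 24 h after the final run. Blood was washed out with saline beforehand, and tissue close to large vessels and ducts was not taken. No liver injury was induced in either group. The values are FPKM, counts of fragments scaled to transcript length and library size, which can be compared between genes. In whole liver, fewer cells of a type and less RNA per cell cannot be told apart.

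The depth of the libraries in reads is unknown. A relative depth, estimated from 23 genes with few reads, lay between 0.980 and 1.021 over the 12 mice. A gene was used only where the FPKM of all mice fitted steps of nearly the same size. Libraries unlike in depth would have failed this choice, so the range cannot show that the depths were alike. Hepatocyte genes dominated every liver, and a list of 9 of them summed to between 72113 and 94966 FPKM. Of 25 other stellate cell genes, 17 passed the filter for low values (1 FPKM or more in 6 or more of the mice). Among them, Lrat, the enzyme that esterifies retinol for storage, had a mean of 2.23 FPKM over the 12 mice. Gfap, a further stellate cell marker, had a mean of 0.10 FPKM. Skeletal muscle genes, beside which Des would also be found, summed to no more than 1.86 FPKM in any mouse, and the myosins Myh1, Myh2 and Myh4 were each listed at 0 in 11 of the 12 mice.

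The promoters of the contractile genes are shown because Acta2 and Tagln, and among all genes Acta2 and Myl9, moved together across the mice. Myl9, the light chain of smooth muscle myosin, is not among the 10 genes. The CArG box binds serum response factor, which together with myocardin cofactors drives smooth muscle genes. It was searched with up to 1 mismatch allowed in its central 6 bases, and since the motif is its own reverse complement this covers both strands. RefSeq promoter sequences (GRCm38.p6, a build other than the GRCm39 the reads were aligned to) had entries for 5 of the 10 genes, namely Acta2, Des, Hgf, Reln and Timp1. In the 250 bases before each start, Acta2 held 2 matches, beginning 84 and 34 bases before the start (chr19:34255374-34255623, minus strand). Myl9 held 2 matches, beginning 161 and 99 bases before the start, of which 1 had no mismatch (chr2:156775214-156775463, plus strand). Des (chr1:75360042-75360291, plus strand), Hgf, Reln and Timp1 held 0 matches. Of the 32851 promoters in the table, 8.59% held at least 1 match and 0.67% at least 2, and 1.47% held a box with no mismatch. The sequences run 5′ to 3′ up to the start, with the matches in capitals. A match describes the letters only.
Acta2: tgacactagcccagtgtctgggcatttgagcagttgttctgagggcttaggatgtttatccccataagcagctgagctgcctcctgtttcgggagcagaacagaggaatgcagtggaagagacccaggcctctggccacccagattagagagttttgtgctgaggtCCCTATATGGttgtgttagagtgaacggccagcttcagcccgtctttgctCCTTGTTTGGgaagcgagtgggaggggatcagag
Myl9: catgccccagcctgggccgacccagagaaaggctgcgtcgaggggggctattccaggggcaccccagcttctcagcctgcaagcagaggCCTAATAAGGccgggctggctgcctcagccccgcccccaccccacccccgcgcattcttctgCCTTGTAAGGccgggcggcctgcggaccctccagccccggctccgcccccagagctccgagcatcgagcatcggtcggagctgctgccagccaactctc
Des: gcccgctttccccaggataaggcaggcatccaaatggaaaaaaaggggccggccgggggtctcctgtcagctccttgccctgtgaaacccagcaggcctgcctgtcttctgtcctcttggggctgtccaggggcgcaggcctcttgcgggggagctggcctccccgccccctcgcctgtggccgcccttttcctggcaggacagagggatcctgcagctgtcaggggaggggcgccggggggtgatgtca

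To learn which of these genes the liver RNA held and at what level, the members were first ranked over the 12 mice. Dcn was by far the most abundant with a mean of 63.6 FPKM, and was 15.9 times as high as Lum (3.99 FPKM). Then came Tagln (3.68 FPKM), Acta2 (2.58 FPKM), Reln (2.29 FPKM), Hgf (1.66 FPKM), Pdgfrb (1.36 FPKM) and Des (1.17 FPKM). Timp1 (0.214 FPKM) and Lox (0.073 FPKM) were lowest, and neither reached 1 FPKM in any mouse. Neighbours in this order were compared within mice on the log2(FPKM + 1) scale by an exact two-sided sign-flip permutation test, adjusted over 9 pairs. The order came from the same mice, so the pairs were not set in advance. On the log2 scale Acta2 was slightly below Reln (mean difference -0.06), and it exceeded Reln in 5 of the 12 mice. Lum and Tagln (adjusted p = 0.396), Acta2 and Reln (adjusted p = 0.823) and Pdgfrb and Des (adjusted p = 0.208) did not differ beyond their spread, and the other 6 pairs did (largest adjusted p = 0.00513). Dcn and Lum, which are neighbours in the genome, both encode small leucine-rich proteoglycans that bind collagen fibrils, and Dcn exceeded Lum in 12 of 12 mice.

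**Figure D1:**
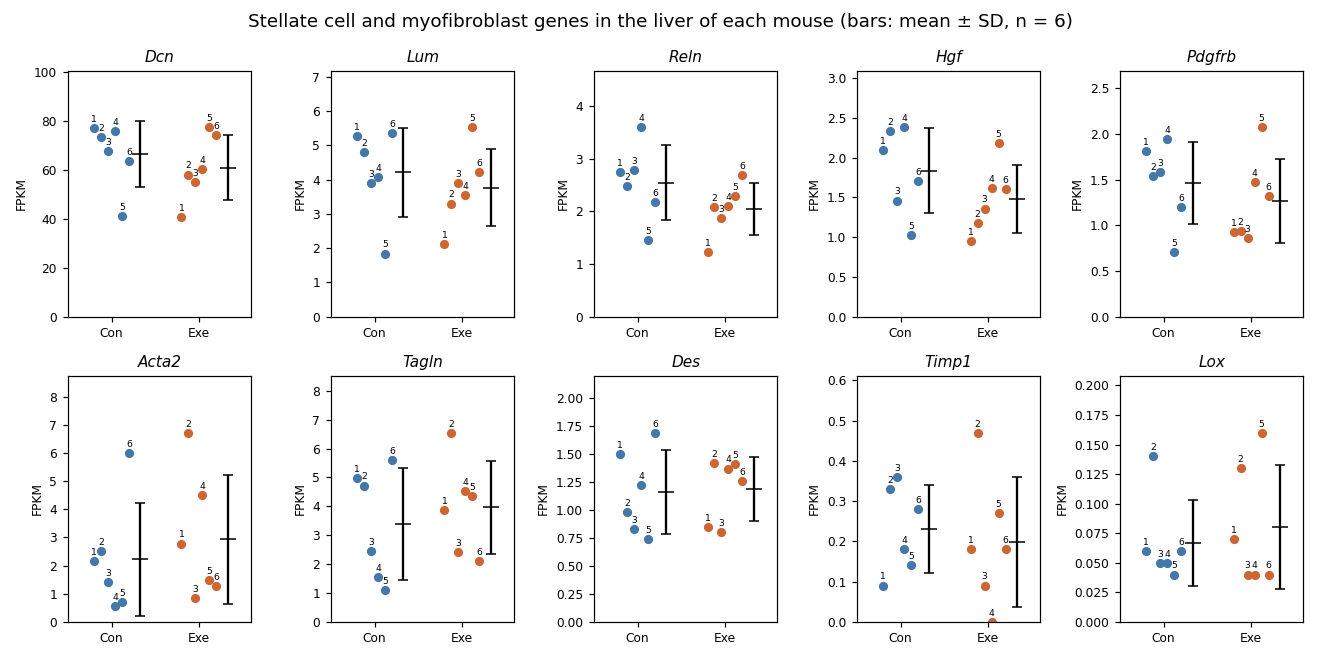
FPKM (y axis, linear, from 0) of the 10 genes in each Con (blue) and Exe (orange) mouse, numbered 1 to 6, with the mean ± SD of the 6 mice of a group as a bar. The groups overlap for every gene, Con 5 and Exe 1 are the lowest mice of their groups for Dcn, Lum, Reln and Hgf, and Acta2 runs from 0.55 to 6.72 FPKM.

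The matrix and signalling members were compared between groups first. Dcn was at 76.97, 73.20, 67.50, 75.78, 41.00 and 63.51 FPKM in Con 1 to Con 6, and at 40.81, 57.98, 54.95, 60.14, 77.21 and 73.99 FPKM in Exe 1 to Exe 6. Con 5 and Exe 1 lay together at the bottom, Exe 5 and Con 1 together at the top, and the groups overlapped almost completely. The group values were 66.3 ± 13.4 FPKM in the Con group and 60.8 ± 13.3 FPKM in the Exe group (SD, n = 6). The log2 difference, Exe minus Con on the log2(FPKM + 1) scale, was -0.12 (95% interval -0.48 to 0.24, adjusted p = 0.95 from limma over 10241 genes), and it was -0.25 without Con 5 and -0.02 without Exe 1. Lum was at lower levels, with 5.27, 4.81, 3.91, 4.06, 1.84 and 5.36 FPKM in Con 1 to Con 6 and 2.11, 3.30, 3.90, 3.56, 5.52 and 4.21 FPKM in Exe 1 to Exe 6. As for Dcn, Con 5 and Exe 1 were the lowest mice. Its log2 difference was -0.11 (95% interval -0.55 to 0.32, adjusted p = 0.961 from limma), and it was -0.28 without Con 5 and 0.0017 without Exe 1.

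Reln and Hgf encode secreted proteins. Reelin acts through the lipoprotein receptors Vldlr and Lrp8, and hepatocyte growth factor through the receptor Met on hepatocytes. Reln was at 2.75, 2.47, 2.79, 3.59, 1.45 and 2.18 FPKM in Con 1 to Con 6 and at 1.22, 2.08, 1.87, 2.10, 2.29 and 2.69 FPKM in Exe 1 to Exe 6. In 5 of the 6 Exe mice it was below the Con median of 2.61 FPKM, and 3 Con mice were above every Exe mouse, but Con 5 was lower than all Exe mice except Exe 1. With 2.54 ± 0.71 FPKM in Con and 2.04 ± 0.49 FPKM in the Exe group (SD, n = 6), Reln had the lowest log2 difference among the members, -0.21 (95% interval -0.52 to 0.0995, adjusted p = 0.8997 from limma). The exact two-sided permutation test of its log2 values gave p = 0.225. Hgf was at 2.10, 2.33, 1.46, 2.38, 1.03 and 1.71 FPKM in Con 1 to Con 6 and at 0.95, 1.18, 1.36, 1.62, 2.18 and 1.61 FPKM in Exe 1 to Exe 6. Again 5 of 6 Exe mice were below the Con median (1.91 FPKM). Its log2 difference was -0.19 (95% interval -0.49 to 0.11, adjusted p = 0.917 from limma, exact permutation p = 0.240). Without Con 5, the log2 differences of Reln and Hgf were -0.31 and -0.28, with unadjusted p-values from limma of 0.0276 and 0.0450 (both adjusted p = 0.831). In that fit, 600 of all 10241 genes tested reached an unadjusted p of 0.05. Without Exe 1, both log2 differences were -0.12.

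Pdgfrb, the receptor through which PDGF drives stellate cell proliferation and migration, was at 1.81, 1.54, 1.58, 1.94, 0.71 and 1.20 FPKM in Con 1 to Con 6 and at 0.93, 0.94, 0.86, 1.47, 2.07 and 1.32 FPKM in Exe 1 to Exe 6. The highest mouse was Exe 5 and the lowest Con 5, so each group held an extreme on the side opposite to its mean. The log2 difference was -0.12 (95% interval -0.44 to 0.19, adjusted p = 0.944 from limma), between -0.22 (without Con 5) and -0.07 with a mouse left out, with 1.46 ± 0.45 FPKM in Con and 1.27 ± 0.46 FPKM in the Exe group (SD, n = 6).

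Acta2 and Tagln varied far more between mice. Acta2, alpha smooth muscle actin, was at 2.16, 2.50, 1.42, 0.55, 0.69 and 6.01 FPKM in Con 1 to Con 6 and at 2.78, 6.72, 0.83, 4.5, 1.48 and 1.26 FPKM in Exe 1 to Exe 6. Values below 1 FPKM (Con 4, Con 5 and Exe 3) and above 6 FPKM (Con 6 and Exe 2) occurred in both groups, and the lowest and highest of the 12 mice differed 12.2 times. The group values were 2.22 ± 2.01 FPKM in Con and 2.93 ± 2.29 FPKM in the Exe group (SD, n = 6). The log2 difference of 0.29 had a 95% interval from -0.57 to 1.15 (adjusted p = 0.952 from limma). It was 0.06 without Exe 2 and 0.55 without Con 6, so either mouse alone moved it by more than 1.5 times. Con 6 also stood apart in bile duct markers, with Krt19 at 18.07 FPKM against 0.44 to 1.53 FPKM in the other Con mice, Tspan8 at 8.4 FPKM, Krt7 at 3.05 FPKM and Epcam at 3.29 FPKM. The smooth muscle gene Myh11 was highest in Con 6 (1.52 FPKM), Exe 4 (1.34 FPKM) and Exe 2 (1.31 FPKM), the mice highest in Acta2. The part of these cells in the Acta2 values was not tested. Tagln, the actin-binding protein transgelin, was at 4.97, 4.72, 2.44, 1.55, 1.09 and 5.61 FPKM in Con 1 to Con 6 and at 3.88, 6.55, 2.43, 4.52, 4.35 and 2.09 FPKM in Exe 1 to Exe 6. Exe 2 and Con 6 were again the top mice. The log2 difference of Tagln was 0.25 (95% interval -0.40 to 0.89, adjusted p = 0.945 from limma), and it was 0.06 without Con 5, 0.11 without Exe 2 and 0.39 without Con 6.

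Des encodes desmin, the intermediate filament of muscle and of stellate cells. It was at 1.5, 0.98, 0.83, 1.22, 0.74 and 1.69 FPKM in Con 1 to Con 6 and at 0.85, 1.42, 0.80, 1.37, 1.41 and 1.26 FPKM in Exe 1 to Exe 6. Its range in Exe mice lay wholly within that in Con mice, and the log2 difference of 0.02 (95% interval -0.23 to 0.28, adjusted p = 0.986 from limma) was below 0 in 5 of the 12 fits without a mouse.

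Timp1 and Lox were below the filter for low values, and were fitted with all 16804 genes above 0 in any mouse. Timp1, an inhibitor of matrix metalloproteinases, was at 0.09, 0.33, 0.36, 0.18, 0.14 and 0.28 FPKM in Con 1 to Con 6 and at 0.18, 0.47, 0.09, 0, 0.27 and 0.18 FPKM in Exe 1 to Exe 6. It was listed at 0 in Exe 4 and was highest in Exe 2, both of the Exe group. Its log2 difference was -0.04 (95% interval -0.23 to 0.14, adjusted p = 0.960 from limma), a scale that understates the change of so low a gene. Lox, the lysyl oxidase that crosslinks collagen, was between 0.04 and 0.14 FPKM in the Con group (median 0.055) and between 0.04 and 0.16 FPKM in the Exe group (median 0.055). At these levels, given to 2 decimals, no difference between groups was detectable (log2 difference 0.02, 95% interval -0.053 to 0.088, adjusted p = 0.959 from limma). Acute-phase genes, with which hepatic Timp1 can rise, were highest in Con 1 (39176 FPKM in sum) and Exe 5 (39331 FPKM), while Timp1 was at 0.09 and 0.27 FPKM there.

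**Figure D2:**
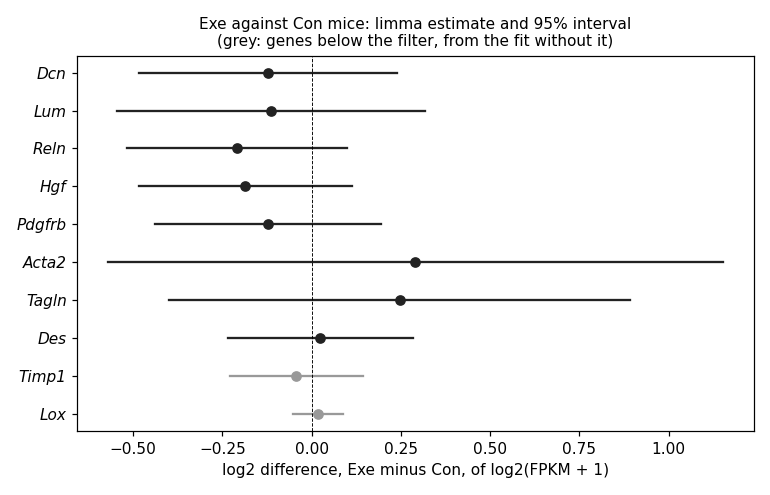
Log2 difference between Exe and Con mice of log2(FPKM + 1) (x axis) for each gene (y axis), as the limma estimate (point) with its 95% interval (line), with the genes below the filter in grey. All 10 intervals include 0, and that of Acta2 is widest, from -0.57 to 1.15.

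Of the 8 members that passed the filter, 0 reached an unadjusted p of 0.05 from limma, against 6.21% of the 10241 genes tested, and 0 reached an adjusted p of 0.05, against 0%. Without the filter, 0 of all 10 members reached an unadjusted p of 0.05, against 5.34% of 16804 genes, and 0 an adjusted p of 0.05, against 0.00595%. In direction, 3 of the 8 were higher (Acta2, Tagln and Des) and 5 lower (Dcn, Lum, Reln, Hgf and Pdgfrb) in Exe mice, where 57.5% of all genes tested were higher and 42.5% lower. The median log2 difference of the 8 was -0.12, against 0.02 over all genes tested. The groups overlapped for 10 of 10 members, and did not overlap for 0.254% of the genes past the filter and 0.173% of those without it. Among the 8, the interval of Acta2 was the widest, and that of Des the narrowest.

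The members differed more between mice than most genes did. The coefficient of variation over the 12 mice was 20.5% for Dcn, 27.3% for Des, 27.8% for Reln, 29.7% for Lum, 29.9% for Hgf, 32.8% for Pdgfrb, 46.9% for Tagln and 81.0% for Acta2, where the median gene tested had 11.7%. Low genes vary more, and the 3752 genes with a mean between 1 and 5 FPKM had a median of 15.4% and a 90th percentile of 30.1%. Des, Reln, Lum and Hgf, whose means are in that range, lay between these values, and Pdgfrb, Tagln and Acta2 lay above the percentile. The coefficient of variation of Acta2 was higher than in 99.6% of all genes tested at any level, and that of Dcn higher than in 82.9%.

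The matrix and signalling members were low in the same pair of mice. Of the 12 mice, Con 5 and Exe 1 held the 2 lowest values of Dcn, Lum, Reln and Hgf. Averaged over Dcn, Lum, Reln, Hgf and Pdgfrb, the log2 values were 0.51 below the mean of the 12 mice in Con 5 and 0.49 below it in Exe 1. The highest averages were in Con 4 (0.31 above), Exe 5 (0.29 above) and Con 1 (0.28 above). The contractile members ranked the mice otherwise. For Acta2, Tagln and Des together, Con 5 was lowest, 0.75 below the mean, and Exe 2 (0.76 above) and Con 6 (0.70 above) were highest, while Con 4 was 0.58 below. Both sets were put together after the values had been seen, and no test was made of either average.

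**Figure D3:**
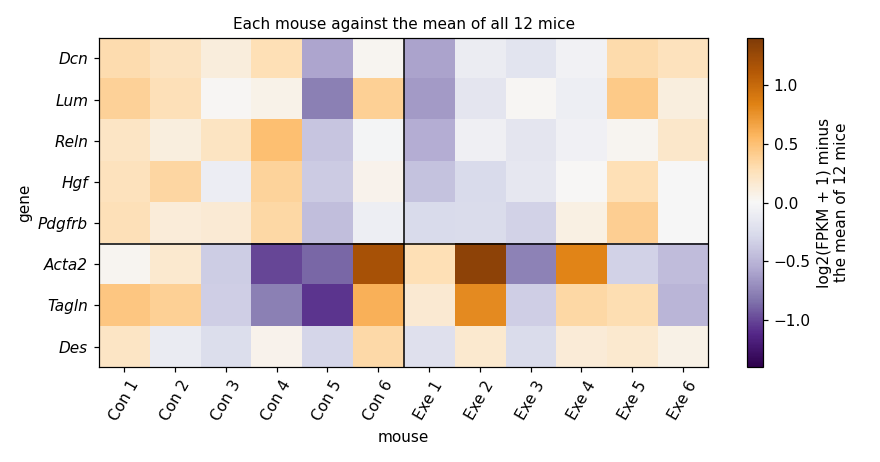
Log2(FPKM + 1) of 8 genes (rows) in each of the 12 mice (columns), as the difference from the mean of the 12 mice, with higher values in orange and lower values in purple. Con 5 and Exe 1 are low in all 5 upper genes, while Acta2 and Tagln are highest in Exe 2 and Con 6 and low in Con 4 and Con 5.

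To see how the members varied together, Pearson's r and Spearman's rho of log2(FPKM + 1) over the 12 mice were computed for all 45 pairs, with permutation p-values adjusted over the 45. By Pearson's r, 11 pairs reached an adjusted p of 0.05. These were all 10 pairs among Dcn, Lum, Reln, Hgf and Pdgfrb (r from 0.70 to 0.90) and the pair Acta2 and Tagln, while 0 of the 15 pairs between these 5 genes and Acta2, Tagln or Des (r from -0.21 to 0.64) and 0 of the 17 pairs with Timp1 or Lox (r from 0.0019 to 0.63) did so. By Spearman's rho, 10 pairs did so, 8 of them among the 5 genes. How often pairs of other genes reach such values over these 12 mice was not computed. The counts therefore do not show that such relations are particular to these genes.

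Dcn and Reln had r = 0.90 (permutation adjusted p = 0.00180) and rho = 0.84 (permutation adjusted p = 0.0105). Within groups, r was 0.89 in Con mice (exact permutation p = 0.0222) and 0.95 in Exe mice (exact permutation p = 0.00694). Dcn and Hgf had r = 0.89 (permutation adjusted p = 0.00180) and rho = 0.85 (permutation adjusted p = 0.0105), with 0.90 within each group (exact permutation p = 0.0153 in Con and 0.0250 in Exe mice). Pdgfrb and Hgf, a receptor and a growth factor of different pathways, had r = 0.88 and rho = 0.83 (permutation adjusted p = 0.00288 and 0.0105). Fewer pairs passed without the mice at the ends, a step that leaves 10 mice and a narrower range, which can lower r. The part of either in this fall was not tested. When the 2 mice farthest from the median of the first gene of a pair were left out, r among the 5 genes was between 0.12 (Lum and Reln) and 0.86 (Pdgfrb and Hgf), and Pdgfrb with Dcn and with Hgf were the 2 pairs past an adjusted p of 0.05 over the 10 remaining mice (permutation adjusted p = 0.0427 for both). For Dcn and Lum, r went from 0.90 to 0.62 without Exe 1 and Con 5 (permutation adjusted p = 0.273), and the pair no longer passed. Its rho over the 12 mice was 0.84 (permutation adjusted p = 0.0105).

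Acta2 and Tagln had r = 0.87 (permutation adjusted p = 0.00288) and rho = 0.90 (permutation adjusted p = 0.00315), and r was 0.89 in Con and 0.86 in Exe mice (exact permutation p = 0.0167 and 0.0292). Without Exe 2 and Con 6, r was 0.82 (permutation adjusted p = 0.0597). Acta2 and Dcn had r = -0.05 (permutation adjusted p = 0.939). For Des, r was 0.57 with Acta2, 0.62 with Tagln, 0.57 with Dcn and 0.64 with Lum, each short of an adjusted p of 0.05 (0.0837 for Lum, permutation test), while by rho Des and Tagln passed (rho = 0.76, permutation adjusted p = 0.0342).

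**Figure D4:**
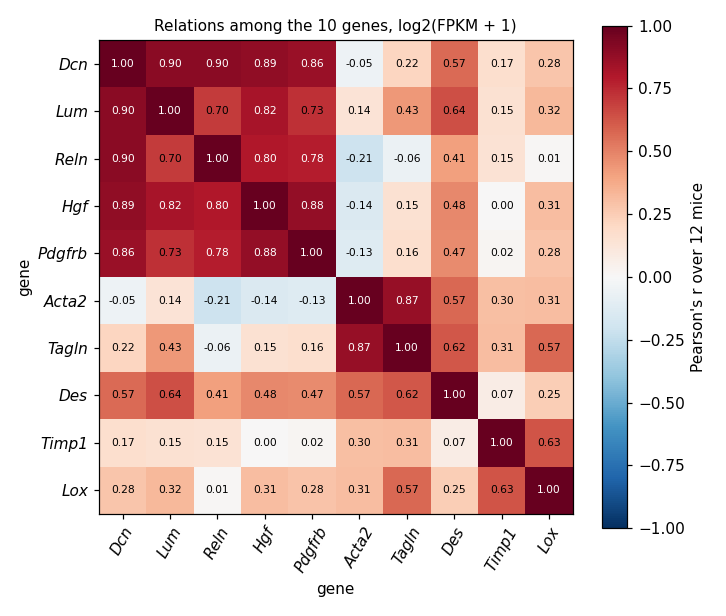
Pearson's r over the 12 mice between log2(FPKM + 1) of each pair of the 10 genes (rows and columns), from blue (-1) to red (1). The red block of Dcn, Lum, Reln, Hgf and Pdgfrb holds r from 0.70 to 0.90, the pair Acta2 and Tagln has 0.87, and the fields between Acta2 and the 5 genes lie between -0.21 and 0.14.

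Among all genes past the filter, those whose log2(FPKM + 1) followed a member most closely over the 12 mice are given as a description, by Pearson's r and without a test, since they were the highest of at least 10240 values each. Dcn was followed by Lhfp (0.98) and Plvap (0.97), Reln by Abcc9 (0.95) and Ecm1 (0.91), Hgf by Cyba (0.96) and Sod3 (0.95), and Pdgfrb by Efemp2 (0.94) and Twf2 (0.91). Abcc9, Ecm1 and Sod3 are on the list of other stellate cell genes, and Efemp2 on that of elastic fibre genes. Acta2 was followed by Myl9 (0.95) and Tagln (0.87), and Tagln by Rnf168 (0.89) and Xpo1 (0.88). Lum was followed by Stoml1 (0.92) and Tnfaip8l2 (0.91), Des by Plp2 (0.85) and Crip1 (0.84), Timp1 by Rabl3 (0.84) and Adck2 (0.82), and Lox by Ccdc32 and Tshz2 (0.88 each).

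The members were next set beside the summed FPKM of 13 lists, namely the 25 other stellate cell genes and 12 lists of markers of other cells or of the acute phase. This gave 130 relations, of which 6 reached an adjusted p of 0.05 (permutation test, adjusted over the 130). How often other genes have such relations with these lists was not computed. The other stellate cell genes summed to between 139.3 and 222.5 FPKM in the Con group and between 157.7 and 251.5 FPKM in the Exe group. The sum was lowest in Con 5 and highest in Exe 5, as Pdgfrb was. Steap4 alone made up 93.93 of 251.53 FPKM in Exe 5, 64.25 of 157.95 FPKM in Exe 1 and 37.83 of 139.25 FPKM in Con 5. Steap4 was also the 1 tested gene of the list with a higher mean in the Exe group. The sum was not taken without it. Over the 12 mice this sum had r = 0.92 with Pdgfrb (permutation adjusted p = 0.00130), 0.90 with Dcn (0.00130), 0.86 with Hgf and 0.81 with Lum (0.0179 for both, permutation test), and rho was 0.90, 0.94, 0.86 and 0.87. Without the 2 farthest mice, r was 0.88, 0.96, 0.86 and 0.71. The permutation adjusted p was then 0.0348 for Pdgfrb, 0.00130 for Dcn and 0.0348 for Hgf. For Lum it was 0.214, so that relation no longer passed. For Acta2, r with this sum was -0.18. Ecm1 (mean 48.0 FPKM) and Steap4 (47.9 FPKM) were its most abundant genes.

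The other 2 relations joined Lum with the bile duct list and Tagln with the portal fibroblast list. Bile duct genes summed to between 35.1 and 84.2 FPKM in the Con group and between 32.4 and 86.6 FPKM in the Exe group, and were lowest in Exe 1 and Con 5, the mice lowest in Lum (r = 0.80, rho = 0.79, permutation adjusted p = 0.0179 by r and 0.0706 by rho). Of its 8 genes, 4 passed the filter, Spp1 made up most of the sum (mean 43.4 FPKM) and Cftr was near 0 (mean 0.023 FPKM). Krt19, Krt7, Epcam and Tspan8 were instead highest in Con 6. Without the 2 farthest mice, Con 5 and Exe 1, r of Lum with the list was 0.70 (permutation adjusted p = 0.233). Portal fibroblast genes summed to no more than 16.3 FPKM, with 2 of 10 past the filter. Their sum was highest in Exe 2 and lowest in Con 5, as Tagln was (r = 0.81, rho = 0.78, permutation adjusted p = 0.0199 by r and 0.0733 by rho). Without the 2 farthest mice, r of Tagln with the list was 0.78 (permutation adjusted p = 0.0818). Vascular smooth muscle genes summed to between 12.5 and 20.9 FPKM, highest in Exe 2, mostly from Mylk (mean 14.1 FPKM), while Myh11 (0.68 FPKM) and Cnn1 (0.29 FPKM) were low. For Acta2, r with this list was 0.75 (permutation adjusted p = 0.0738). The sinusoidal endothelium list was highest in Con 5, at 126.8 FPKM, and at 100.5 FPKM in Exe 1, so the 2 mice low in Dcn were not alike in it. Whether the amount of portal tract or vessel in a piece of liver had a part in these differences was not tested.

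**Figure D5:**
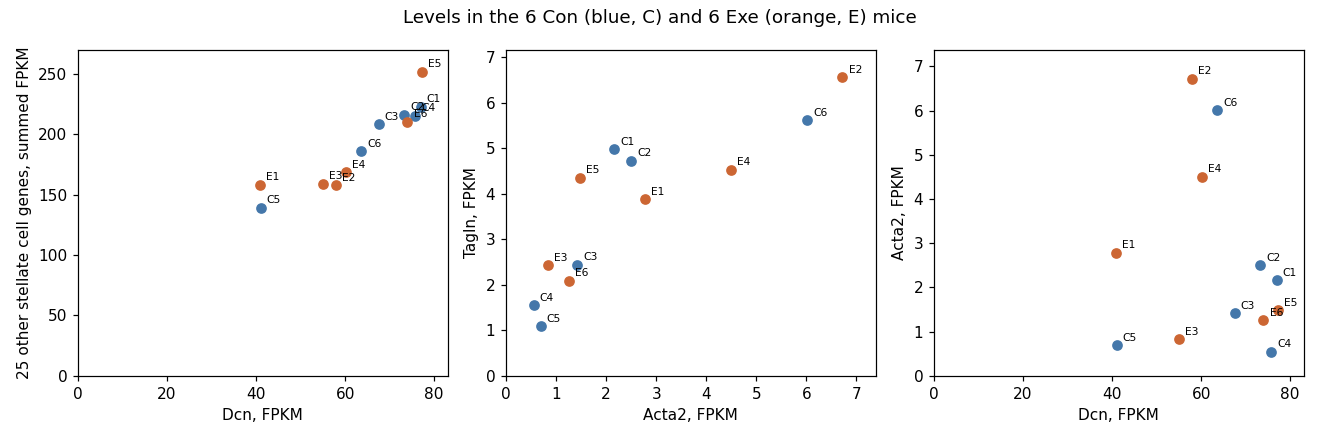
FPKM of each Con (blue, C) and Exe (orange, E) mouse, for Dcn (x axis) against the summed FPKM of 25 other stellate cell genes, for Acta2 against Tagln, and for Dcn against Acta2, all on linear axes from 0. In the first panel C5 and E1 lie at the lower left and E5 at the top, in the second E2 and C6 lie at the upper right, and in the third the mice show no order (r = -0.05 on the log2 scale).

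The other genes of the same pathways were read from 7 lists, all from the same limma fit, and 0 genes of any of the 7 reached an unadjusted p of 0.05. Of the 17 other stellate cell genes past the filter, 16 had a lower mean in the Exe group (median log2 difference -0.10), where 42.5% of all genes tested were lower with a median of 0.02. These genes vary together across mice, so their count is not that of 16 separate measurements. Nearest to the threshold were Colec11, a collectin secreted by stellate cells (log2 difference -0.34), Cygb, the globin cytoglobin (-0.24), and Sod3, extracellular superoxide dismutase (-0.31), with adjusted p-values from limma of 0.851, 0.862 and 0.908. With each mouse left out and under the other settings, between 14 and 17 of them were lower. At an unadjusted p of 0.05 were 4 without Con 5 (600 of all 10241 genes did so) and 3 without Con 5 and Exe 1 (521 of all genes). There were also 2 without Exe 5 (910 of all genes) and 1 without Exe 6 (517 of all genes). In each of these fits, 0 genes reached an adjusted p of 0.05. Lists of other cells went both ways. Lower were 10 of 10 Kupffer cell genes (median -0.21), 4 of 4 tested bile duct genes (median -0.15) and 12 of 12 acute-phase genes (median -0.26), 0 of them at an unadjusted p of 0.05. Higher were 7 of 9 hepatocyte genes (median 0.07) and 4 of 5 red blood cell genes (median 0.75), where 57.5% of all genes tested were higher. Of the sinusoidal endothelium genes, 6 of 10 were higher (median 0.08), which is near that share. At an unadjusted p of 0.05 were 3 hepatocyte genes (2 higher, 1 lower) and 1 red blood cell gene, against 6.21% of all genes tested. The part of these other cells in the stellate cell values was not tested.

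The fibrillar collagens were low. Col1a1 was at 2.0 ± 1.1 FPKM in Con and 1.29 ± 0.67 FPKM in the Exe group, Col1a2 at 3.16 ± 1.20 and 2.19 ± 0.55 FPKM, and Col3a1 at 6.14 ± 2.70 and 4.75 ± 1.67 FPKM (SD, n = 6), and their log2 differences were -0.34, -0.34 and -0.25, with adjusted p-values of 0.863 or higher from limma. Con 5 was lowest and Con 3 highest in all 3. Without Con 5 the median log2 difference of the 3 went from -0.34 to -0.51 and 3 of 3 reached an unadjusted p of 0.05, without Con 5 and Exe 1 it was -0.44 and 2 of 3 did so, and 0 did so with any other mouse left out. The shares of all genes in these fits are those given above for the stellate cell list.

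Of the 11 tested genes of the list of small leucine-rich proteoglycans and elastic fibre genes, of which Bgn, Prelp and Podn are proteoglycans of the same family as Dcn and Lum, 9 were lower and 2 higher in Exe mice (median -0.13). Bgn, biglycan, had a log2 difference of -0.23, Postn, periostin, of -0.23, and Prelp of -0.19 (adjusted p from limma at least 0.896), and between 8 and 11 of the 11 were lower over the alternatives. Without Con 5, 11 were lower and 4 reached an unadjusted p of 0.05 (600 of all 10241 genes did). Without Con 5 and Exe 1, 10 were lower and 2 did so (521 of all genes). With any other mouse left out, 0 or 1 did so. Of the 12 tested matrix proteases, inhibitors and crosslinking enzymes, to which Timp1 and Lox belong by function, 6 were lower and 6 higher (median -0.0061). Of all genes tested, 42.5% were lower. Pzp (-0.17), Plod3 (0.06) and Timp2 (-0.12) had the smallest p-values there (adjusted p from limma at least 0.921). Of the 13 tested contractile and smooth muscle genes, 7 were higher and 6 lower (median 0.01), so 46.2% were lower, near the 42.5% of all genes tested. This split depended on single mice, with 2 lower without Con 1, 2 without Exe 1, 3 without Exe 6 and 8 without Exe 5. The share of all genes that were lower in these fits was 46.2%, 38.3%, 40.7% and 44.5%, in that order. The log2 differences with the smallest p-values were those of Mylk (0.14), Myl9 (0.36) and Csrp1 (-0.13), with adjusted p-values from limma of at least 0.867.

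Ligands, receptors and transducers of the members' pathways did not pass the test either. Of the 18 tested PDGF and TGF-beta signalling genes, 10 were higher and 8 lower (median 0.03), so 44.4% were lower, near the 42.5% of all genes tested. Bambi, a pseudoreceptor that dampens TGF-beta signals, had a log2 difference of 0.15, Ccn1 of -0.46 and Skil of 0.09 (adjusted p from limma at least 0.847). Of the 5 tested HGF and reelin signalling genes, 3 were higher and 2 lower (median 0.01), also near that share. Met, the receptor for Hgf, was at 7.71 ± 0.52 FPKM in Con and 8.38 ± 0.53 FPKM in the Exe group (SD, n = 6), a log2 difference of 0.11 (adjusted p = 0.848 from limma), beside -0.19 for Hgf itself. Gab1 was at 0.08 and Spint2 at -0.03 (adjusted p from limma at least 0.947).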

How the data were processed

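Libraries from 6 Con and 6 Exe livers were sequenced on the DNBseq platform, and the groups and mouse numbers were taken from the labels. Clean reads were mapped by the authors with HISAT on GRCm39, and the deposited values are FPKM with 2 decimals. The submitters' processing notes also name Bowtie2 and mm10. Which program and gene annotation gave the FPKM is not given in the sources used here. The authors' differential analysis used DESeq on counts, which FPKM are not, so limma 3.58.1 in R 4.3.3 was used here.

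Log2(FPKM + 1) of the 10241 genes at 1 FPKM or more in 6 or more mice was fitted by lmFit with the group as the only term, followed by eBayes (trend). P-values were adjusted by Benjamini-Hochberg over all genes fitted. Timp1 and Lox were taken from the fit without the filter (16804 genes). The pseudocount of 1 understates the change of low genes. Single genes were also tested by exact two-sided permutation over 924 splits (smallest p 0.00216), and correlations with 100000 permutations. The limma fit and the depth estimate were tested on simulated data, the latter only for libraries of nearly equal depth. Depth in reads is unknown and the spread between mice is the only error given. Permutations used scipy 1.17.1 and numpy 2.4.6 in Python 3.11.15, and plots matplotlib 3.10.9. The authors used a principal component analysis to screen for outliers, and whether any mouse was removed is not given in the sources used here. Each mouse is a separate animal with its own library, and no pair of libraries was identical.

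The members and gene lists were chosen with earlier results of these data known. Genes named beside the members were up to 3 of each pathway list with the smallest p, the 2 genes most like each member, genes of marker lists that were abundant, near 0 or apart in a mouse, and Lrat, Gfap and the Col1a1, Col1a2 and Col3a1 collagens. Myl9's promoter and 3 alternatives (without Con 5 and Exe 1, group means subtracted, quantile scaling of the relations) were chosen after seeing the data. The other alternatives were a pseudocount of 0.1, no filter, a stricter filter (at least 1 FPKM in all 12 mice), quantile normalization, robust variance moderation, the replicate number as a block, and each mouse left out in turn.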

Additional observations from a re-analysis of the deposited data

Results flagged for a closer look

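Dixon's ratio (the gap of an end mouse to its neighbour over the range of its group, set against the critical value for 6 mice at 95%) was computed for 20 sets of 6 mice, the 10 genes in each group. It was above that value in 3 sets, where chance flags about 1 in 20. Acta2 was far higher in Con 6, at 6.01 FPKM, than in the other Con mice (ratio 0.643), and Krt19 was also highest there, at 18.07 FPKM. Dcn was lower in Con 5, at 41.00 FPKM, than in the others (ratio 0.626, only just above the critical value). Lox was higher in Con 2, at 0.14 FPKM against 0.04 to 0.06 FPKM in the others (ratio 0.80).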

How the results depend on the processing

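Of 182 values of the 10 log2 differences under alternatives, 174 kept their direction. The 8 that did not were small values from fits that left out 1 mouse, whose ranges were -0.0347 to 0.0910 for Des, -0.280 to 0.0017 for Lum, -0.105 to 0.0066 for Timp1 and -0.0037 to 0.0365 for Lox. The number of members at an unadjusted p of 0.05 was 0 under each other alternative, and lay between 0 and 2 with a mouse left out. The 2 were Reln and Hgf without Con 5, where 600 of all 10241 genes tested also reached it. With the stricter filter 4 members were tested and 1 (Tagln) was higher in Exe mice. Of the 45 pairs, 2 were past an adjusted p of 0.05 without the 2 farthest mice of each pair and 2 without Con 5 and Exe 1, both over 10 mice, against 11 over 12 mice. Over all 12 mice, 11 pairs were past it with a pseudocount of 0.1, 10 with group means subtracted and 9 with quantile normalization. Deviations of same-numbered mice from their group means correlated between -0.48 and 0.16. No pairing by number was seen, though 6 such values cannot exclude one. With the replicate block, 0 members passed. Timp1 and Lox are limited by their low level.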
